A study of Mus musculus with 12 samples.

Results

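The genes described here encode 9 liver enzymes that break down tyrosine (Tat, Hpd, Hgd, Gstz1 and Fah), tryptophan (Tdo2, Kmo and Haao) and lysine (Aass). They were taken by symbol from the 35275 genes of the deposited expression table, where each has a single row. RNA from 12 mouse samples labelled as liver was sequenced, in 4 groups of 3 libraries that the series' design text calls biological replicates. WT chow and WT HFD are samples labelled wild-type, the former on vivarium chow and the latter on a high fat diet. KO chow and KO HFD are samples labelled Hnf4a liver knockout on the same diets. The sources used here do not give the Cre line, the strain, the sex, the age or the length of feeding. The series title frames the question as what the diet and the loss of this hepatocyte transcription factor do to liver expression.

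Liver is the main site where surplus aromatic amino acids and lysine are degraded. Tyrosine is first transaminated, its ring is then opened, and the fragments end as fumarate and acetoacetate. Inherited loss of FAH causes tyrosinaemia type I, and nitisinone, the drug given for it, blocks HPD upstream. Tryptophan enters the kynurenine pathway, which leads to NAD or to full oxidation. Lysine is degraded in mitochondria through saccharopine. Tat and Tdo2 are long-known glucocorticoid-induced liver genes.

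Promoter sequence was compared because Fah and Gstz1 had more transcript than the other 7 genes in a library that carried almost no hepatocyte RNA (WT chow 3, described below). Each window holds the 250 bases before a gene's RefSeq start, on GRCm38.p6 and in the gene's own direction, with CG dinucleotides in capitals. All 9 genes matched the RefSeq table, with 10 windows in all because Gstz1 has 2 starts. The windows shown are those of Fah and Gstz1, which were above 1 FPKM in that library, and of Aass and Hgd, which were not. None of these 4 windows holds a base of an annotated exon. Of those not shown, the Tdo2 and Haao windows lie wholly in annotated exons, and those of Kmo and Hpd hold 197 and 4 exon bases. The Fah window lies inside the gene span of the deposited table, which reaches further upstream than the RefSeq start.
Fah, chr7:84605943-84606192, minus strand: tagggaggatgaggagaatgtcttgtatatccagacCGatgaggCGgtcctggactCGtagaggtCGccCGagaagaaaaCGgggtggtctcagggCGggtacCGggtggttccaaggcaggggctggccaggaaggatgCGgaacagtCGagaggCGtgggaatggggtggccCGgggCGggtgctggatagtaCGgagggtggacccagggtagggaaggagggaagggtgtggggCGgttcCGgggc
Gstz1, chr12:87146915-87147164, plus strand: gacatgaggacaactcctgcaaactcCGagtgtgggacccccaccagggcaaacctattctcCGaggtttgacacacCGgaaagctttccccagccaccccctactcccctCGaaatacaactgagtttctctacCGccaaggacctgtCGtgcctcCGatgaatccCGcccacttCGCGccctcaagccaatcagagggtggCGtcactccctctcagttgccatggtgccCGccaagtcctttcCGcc
Aass, chr6:23132987-23133236, minus strand: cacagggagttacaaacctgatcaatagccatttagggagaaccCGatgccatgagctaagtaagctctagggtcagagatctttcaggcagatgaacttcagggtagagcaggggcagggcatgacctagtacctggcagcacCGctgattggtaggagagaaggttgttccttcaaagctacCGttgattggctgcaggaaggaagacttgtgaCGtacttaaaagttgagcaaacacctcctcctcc
Hgd, chr16:37579903-37580152, plus strand: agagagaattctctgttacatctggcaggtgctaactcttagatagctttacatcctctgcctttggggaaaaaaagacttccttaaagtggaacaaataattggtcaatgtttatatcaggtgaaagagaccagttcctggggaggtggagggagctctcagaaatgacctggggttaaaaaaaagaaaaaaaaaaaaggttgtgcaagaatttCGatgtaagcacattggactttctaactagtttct
Fah held 16 CG dinucleotides and this Gstz1 window 13, against 4 in Aass and 1 in Hgd. The other windows held 7 in Hpd, 6 in Haao, 5 in Kmo, and 3 each in Tat, in Tdo2 and at the downstream Gstz1 start. Over all 32851 windows of the table the median was 6, with quartiles of 2 and 16. Fah and Gstz1 thus had the most of the set, without passing the upper quartile of all windows, and the other windows lay near or below the median. A 9-base HNF4 motif, CAAAGTCCA, was searched on both strands and matched none of the 10 windows, against 0.384% of all windows. The shorter nuclear receptor motif AGGTCA matched in 4 of the 9 genes (Hgd, Tdo2, Haao and Aass) and in 14.0% of all windows. The first count is of genes and the second of windows. The CCAAT box matched in 5 genes (33.8% of all windows) and the TATA box in 2 (12.4%). A C/EBP site matched in 2 (9.56%) and an HNF1 half-site in 1 (6.43%). These are matches of letters in short windows and say nothing of binding.

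The values are FPKM, reads scaled for the length of the gene and the depth of the library, as the authors deposited them, and libraries held 15705196 to 20311766 reads on genes. Hnf4a itself did not follow the labels. Its FPKM in the 3 KO chow libraries was 158, 132 and 130, and KO HFD had 108, 98.8 and 138. WT HFD had 133, 116 and 120 FPKM, and WT chow 126, 75.8 and 0.0973 FPKM. Over both diets the libraries labelled KO averaged 127 ± 21.4 FPKM and those labelled WT 95.1 ± 50.6 (SD, n = 6; exact two-sided permutation p = 0.182, smallest possible 0.00216). Without WT chow 2 and 3 the WT mean was 124 ± 7.42 FPKM (SD, n = 4; exact permutation p = 0.771, smallest possible 0.00476). A whole-gene value does not measure a deletion of some exons, and genotype below means the label only. The libraries WT chow 2 and WT chow 3 stood apart. The 8 hepatocyte markers summed to 31.5 FPKM in WT chow 3 and 29574 in WT chow 2, against 38851 to 69047 in the other 10 libraries. In WT chow 3, Alb stood at 11.9 FPKM and Ucp1, the uncoupling protein of brown fat, at 2339 FPKM, and 37.5% of reads came from the mitochondrial genome. Each comparison is therefore given with all 12 libraries and with the 10 left without WT chow 2 and 3. In bulk RNA, fewer cells of a type and less RNA per cell cannot be told apart.

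In those 10 libraries the 9 genes together took 0.642 to 1.08% of the reads on genes. Their share was 0.512% in WT chow 2 and 0.0304% in WT chow 3. Hpd had the highest level per length, 1657 ± 335 FPKM (SD over 10 libraries), and exceeded the next gene, Tdo2 (593 ± 93.3 FPKM), in 10 of 10 libraries. Tdo2 exceeded Gstz1 (512 ± 65.4 FPKM) in 9 of 10. Haao (474 ± 90.0 FPKM), Fah (458 ± 68.9 FPKM), Tat (379.8 ± 149 FPKM) and Hgd (344 ± 62.5 FPKM) followed. The order of Gstz1 over Haao held in 7 of 10 libraries, of Haao over Fah in 6, of Fah over Tat in 8 and of Tat over Hgd in 5, so these neighbours were not separated beyond their spread. Hgd exceeded Kmo in 10 of 10, and Kmo (77.1 ± 16.7 FPKM) and Aass (73.7 ± 17.6 FPKM) were not separated from each other (6 of 10). The set thus spanned an abundant group of 7 genes and a pair, Kmo and Aass, several-fold lower.

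**Figure D1:**
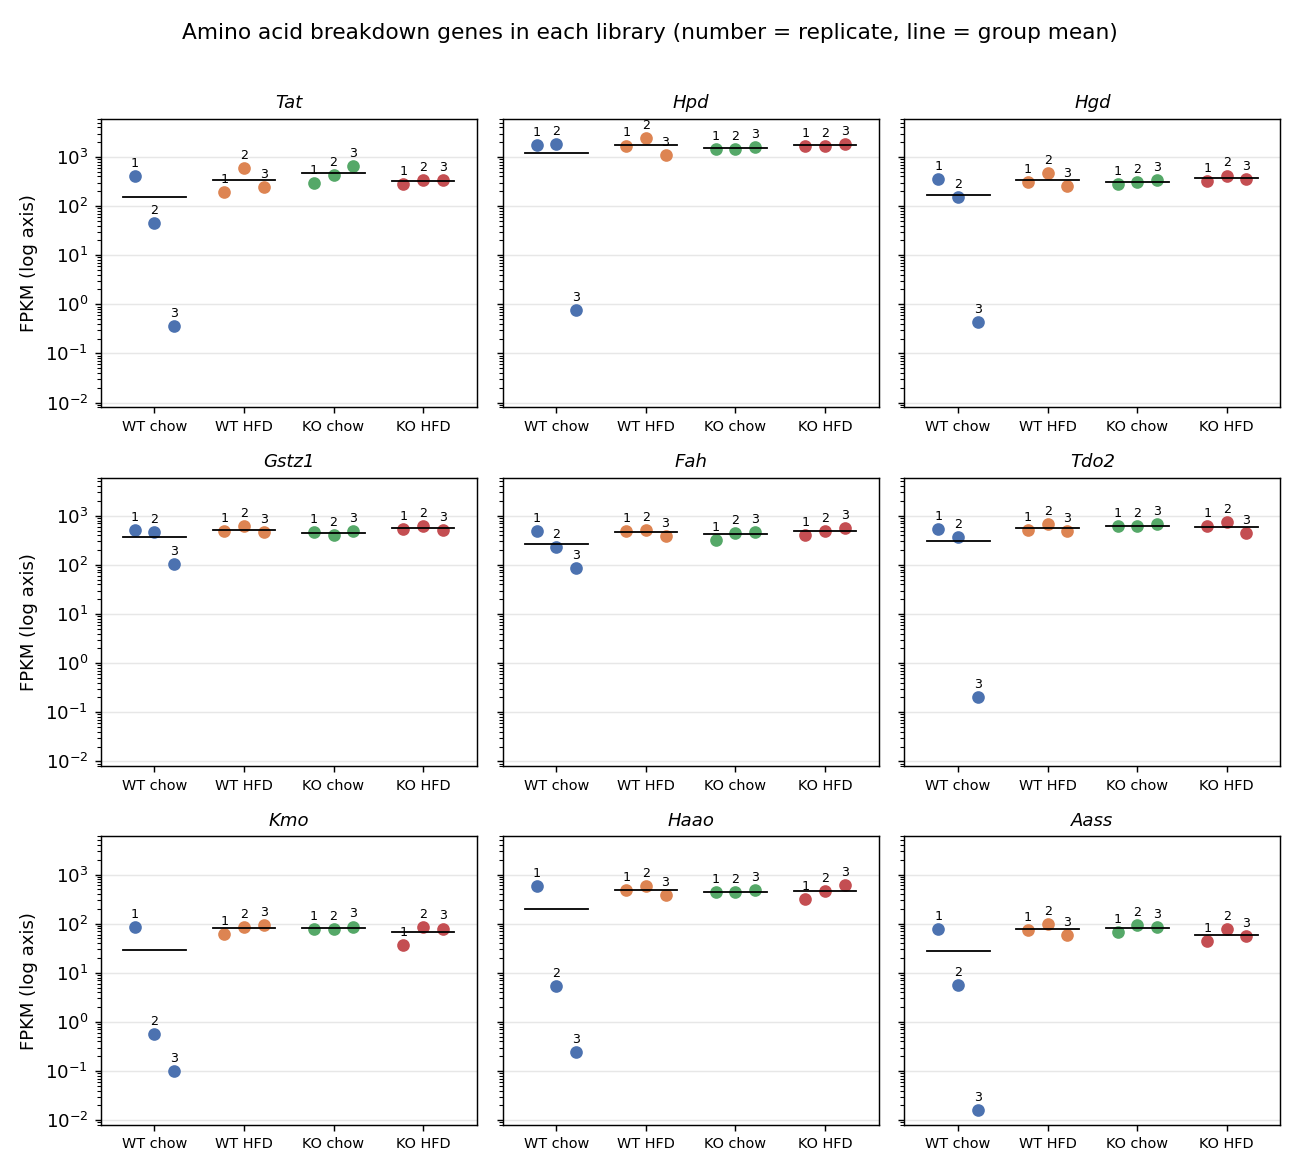
FPKM (log axis) of each gene in each library, grouped by label, where numbers are replicates and lines are group means. WT chow 1 lies among the other groups for every gene, WT chow 3 lies far below them, and WT chow 2 is low for some genes and not for others.

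Tat encodes tyrosine aminotransferase, the entry and rate-limiting step of tyrosine breakdown. It lies on chromosome 8, 109990437 to 109999803, plus strand (GRCm38, as for all gene positions here). Tat stood at 408, 46.0 and 0.357 FPKM in WT chow 1 to 3, 193, 595 and 248 in WT HFD, 293, 430 and 660 in KO chow, and 286, 345 and 342 in KO HFD. It was the most variable gene of the set. Its highest value, in KO chow 3, was 3.43 times its lowest, in WT HFD 1. The SD within groups was 0.60 on the log2(FPKM + 1) scale, more than in 95.2% of the 12251 genes tested, against a median of 0.22. The 10 libraries of all groups overlapped, and KO HFD was the group in which Tat varied least.

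Hpd encodes 4-hydroxyphenylpyruvate dioxygenase, which takes the product of TAT to homogentisate (chromosome 5, 123171807 to 123182725, minus strand). Its levels were 1750, 1795 and 0.778 FPKM in WT chow, 1710, 2385 and 1081 in WT HFD, 1459, 1424 and 1576 in KO chow, and 1634, 1705 and 1850 in KO HFD. WT chow 2 was as high as WT chow 1, which set Hpd apart from Tat. Hgd encodes homogentisate dioxygenase, which opens the ring (chromosome 16, 37580153 to 37632020, plus strand). It stood at 360, 154 and 0.427 FPKM in WT chow, 311, 469 and 261 in WT HFD, 282, 313 and 342 in KO chow, and 320, 419 and 362 in KO HFD. The 2 genes moved closely together in the 10 libraries: the ratio of Hpd to Hgd, per length, ran only from 4.07 to 5.50 (1.35-fold), while that of Hpd to Tat ran from 2.39 to 8.88. This was not particular to the pair, as the ratio of Gstz1 to Hgd had a range of 1.38-fold. In WT chow 2 the ratio of Hpd to Hgd was 11.7. Hpd and Hgd were both lowest of the 10 in WT HFD 3 and highest in WT HFD 2. The deposited Hpd gene overlaps Psmd9, on the other strand, and the non-coding Gm26745, and Hgd overlaps the antisense gene Gm46559. The sources used here do not say whether the counting used strand.

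Gstz1 encodes maleylacetoacetate isomerase, and Fah encodes fumarylacetoacetate hydrolase, the final step. Gstz1 (chromosome 12, 87147707 to 87164721, plus strand) stood at 518, 465 and 104 FPKM in WT chow, 481, 623 and 469 in WT HFD, 467, 406 and 494 in KO chow, and 538, 608 and 519 in KO HFD. It was the steadiest gene of the set, with a within-group SD of 0.17 (log2 scale) in the 10 libraries, above that of 28.2% of genes. Fah (chromosome 7, 84585159 to 84606722, minus strand) stood at 489, 227 and 86.1 FPKM in WT chow, 494, 524 and 388 in WT HFD, 327, 449 and 470 in KO chow, and 396, 492 and 552 in KO HFD. These were the genes with the most CG dinucleotides among the windows above, for Gstz1 at its upstream start only (3 at the downstream start). They were also the only members above 1 FPKM in WT chow 3. The windows were compared because of those WT chow 3 values, and a part of CG content in them was not tested. Gstz1 overlaps Pomt2 and the antisense gene Gm6566 on the other strand, while Fah overlaps no annotated gene.

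Tdo2 encodes tryptophan 2,3-dioxygenase, which starts the kynurenine pathway in liver (chromosome 3, 81957090 to 81975750, minus strand). It stood at 538, 369 and 0.203 FPKM in WT chow, 516, 685 and 497 in WT HFD, 612, 605 and 680 in KO chow, and 628, 731 and 440.01 in KO HFD. All 3 KO chow libraries were above all 3 of WT chow. Kmo encodes kynurenine 3-monooxygenase, an enzyme of the outer mitochondrial membrane (chromosome 1, 175620381 to 175662116, plus strand). Its levels were 84.8, 0.564 and 0.0991 FPKM in WT chow, 60.6, 87.2 and 94.5 in WT HFD, 78.9, 77.2 and 87.4 in KO chow, and 36.9, 83.6 and 79.7 in KO HFD. Apart from WT chow 2 and 3, KO HFD 1 was lowest, followed by WT HFD 1. Kmo overlaps Fh1, on the other strand.

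Haao encodes 3-hydroxyanthranilate dioxygenase, whose product yields quinolinate, the precursor of NAD (chromosome 17, 83831356 to 83846790, minus strand). It stood at 579.5, 5.34 and 0.248 FPKM in WT chow, 481, 572 and 391 in WT HFD, 437, 434 and 475 in KO chow, and 317, 453 and 605 in KO HFD. Aass encodes the bifunctional aminoadipate semialdehyde synthase that begins lysine breakdown (chromosome 6, 23072173 to 23132986, minus strand). Its levels were 76.8, 5.56 and 0.0164 FPKM in WT chow, 75.7, 100.5 and 57.8 in WT HFD, 68.5, 93.3 and 85.2 in KO chow, and 43.4, 79.5 and 56.2 in KO HFD. Haao and Aass shared with Kmo a low level in WT chow 2, deepest in Kmo and Haao, and their lowest value among the 10 libraries in KO HFD 1.

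The 2 libraries that stood apart divided the set in different ways. As a share of the 10-library median, WT chow 2 kept Hpd at 107.5%, Gstz1 at 91.8%, Tdo2 at 60.6%, Fah at 47.4% and Hgd at 46.4%. It held Tat at 13.4%, Aass at 7.30%, Haao at 1.15% and Kmo at 0.690%. Steps of the same route were thus unlike in this library: Hpd was at its usual level and Tat was low, and Tdo2 was largely kept while Kmo and Haao were nearly gone. Kmo rested on 39 reads there and Haao on 123, while Tdo2 had 20692. The ratio of Tdo2 to Kmo was 654 in WT chow 2 and 5.26 to 17.02 in the 10 libraries, and that of Haao to Tdo2 was 0.0145 against 0.505 to 1.37. Under 10% of the median were 3 of 9 members, against 9.25% of the 2444 genes with a median of at least 20 FPKM.

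WT chow 3 held Gstz1 at 20.6% and Fah at 17.9% of the 10-library median, from 2862 and 2087 reads. The other 7 genes stood between 0.0215 and 0.129% of it, from 1 read (Aass) to 18 reads (Hpd). Under 10% of the median were 7 of 9 members, against 23.1% of those 2444 genes. The ratio of Gstz1 to Hgd was 244 there and 1.30 to 1.79 in the 10 libraries. Among the tyrosine members, the steps after ring opening were thus those above 1 FPKM in the library low in hepatocyte markers. This was not particular to those steps. Of 6 other genes of phenylalanine and tyrosine, Got1 stood at 50.2% and Qdpr at 21.0% of the median there, and 4 were under 10%. The 7 brown fat markers summed to 15416 FPKM in WT chow 3 and to 34.2 to 199 FPKM in the other libraries. Whether the Gstz1 and Fah transcript in WT chow 3 came from hepatocytes was not tested. The part of the low hepatocyte markers and of the high brown fat markers in these values was not tested either.

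**Figure D2:**
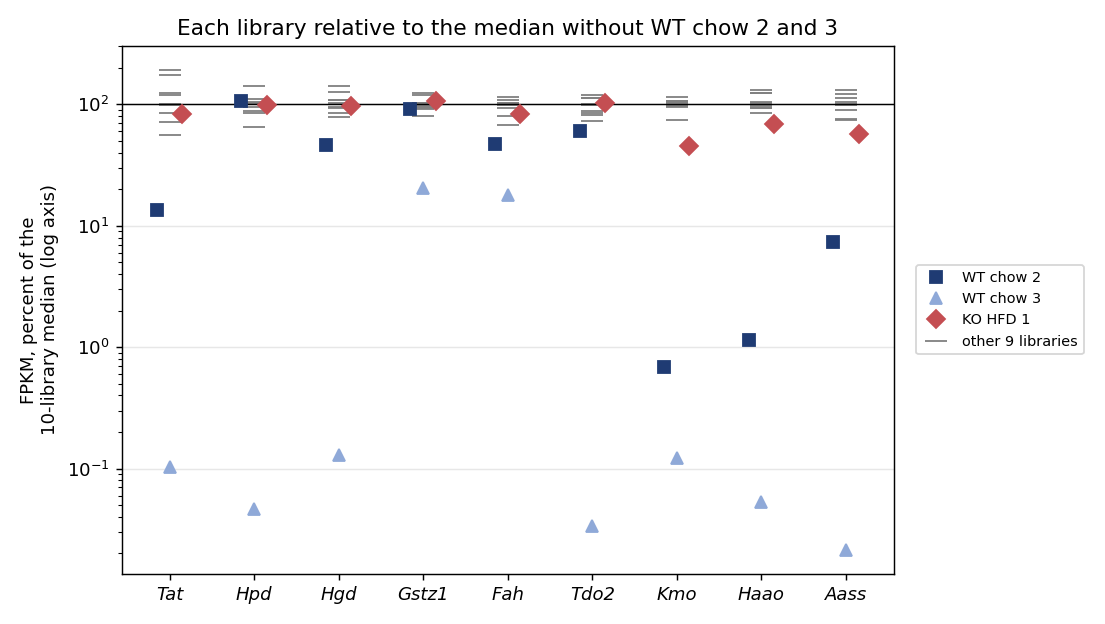
Level of each gene in each library as a percentage of its median over the 10 libraries without WT chow 2 and 3 (log axis). Squares (WT chow 2) fall from Hpd at 107.5% to Kmo at 0.690%, triangles (WT chow 3) stay above 10% only for Gstz1 and Fah, and diamonds (KO HFD 1) are lowest for Kmo, Aass and Haao.

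Other genes of the same pathways were set against the 10172 tested genes with a median of at least 1 FPKM, of which 5.31% were under 10% of it in WT chow 2 and 10.96% in WT chow 3. In WT chow 2, 3 of 10 other tryptophan genes were under 10% of their median: Ido2, a second dioxygenase, at 0.0994 FPKM (12.8 to 34.997 in the 10 libraries), Aadat, an aminotransferase of kynurenine and of the lysine product aminoadipate, at 3.46 FPKM (32.9 to 62.8), and Qprt, which uses quinolinate, at 2.38 FPKM (89.8 to 150.02). Of 8 other lysine genes, 3 were: Bbox1, of carnitine synthesis, at 0.0790 FPKM (18.5 to 43.8), Slc25a21, a mitochondrial oxodicarboxylate carrier, at 0.0407 FPKM (3.21 to 8.76), and Hykk, hydroxylysine kinase, at 0.260 FPKM (6.83 to 18.5). Among 6 other genes of phenylalanine and tyrosine it was 0. In WT chow 3 the counts were 7 of 10, 7 of 8 and 4 of 6. Of 25 genes of other amino acids, 5 were under 10% of their median in WT chow 2, among them Ftcd, Prodh and Prodh2. In WT chow 3 it was 11 of 25. Above 50% in WT chow 2 were 14 of the 25, a smaller share than the 75.6% of the 10172 genes. These 14 included Sds, serine dehydratase, at 348 FPKM (44.5 to 147 in the 10 libraries), and Bckdha, of the branched-chain keto acid dehydrogenase, at 458 FPKM (149 to 232).

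KO on chow was compared with WT on chow by limma on log2(FPKM + 1), with Benjamini-Hochberg adjustment over 12251 genes and a threshold of 0.05. With 12 libraries 0 of 9 members passed, and 0% of all genes were called. All 9 had higher means in KO chow, by 0.63 to 4.76 on the log2 scale (median 3.35, against 0.08 over all genes). Adjusted p ran from 0.195 to 0.504, and 4 of 9 members and 2584 of all genes had an unadjusted p under 0.05. Without WT chow 2 and 3 the differences ran from -0.37 (Haao) to 0.23 (Tdo2), with a median of -0.19, and again 0 of 9 passed (0.00816% of genes called). WT chow was then a lone library whose spread is taken to be that of the other groups. The 95% intervals reached from -1.22 to 1.41. The means of 12 libraries thus rested on WT chow 2 and 3.

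The result also turned on the third library of that group. Without WT chow 1, WT chow consisted of only the 2 libraries that stood apart, and 5 of 9 members passed (Haao, Tat, Aass, Fah and Kmo), when 24.3% of all genes did. Haao then differed by 7.32 (SE 0.59, adjusted p = 2.6e-05, limma), Kmo by 5.97 (SE 0.37, adjusted p = 6.2e-06) and Aass by 5.0002 (SE 0.64, adjusted p = 0.00054). Tdo2, the member whose KO chow libraries all lay above WT chow, did not pass in any fit. Its 3 KO chow values were separate from those of WT chow as in 12.4% of genes in that direction. WT chow 1 stood at 538 FPKM and the lowest KO chow library at 605 FPKM.

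On the high fat diet the genotype labels were compared without the WT chow libraries in either group. Members differed by -0.39 (Aass) to 0.12 (Hgd) on the log2 scale, KO minus WT, with a median of 0.07, against -0.03 over all genes. With 12 libraries 0 of 9 passed (0.155% of genes called, adjusted p of 1 for each, limma) and 156 genes, none of them a member, had an unadjusted p under 0.05. With 10 libraries, where the estimate of spread leaves out WT chow 2 and 3, 0 of 9 passed (0.18% called) and adjusted p ran from 0.541 to 0.957. The 95% intervals then spanned -1.005 to 1.013 over the 9 genes, and that of Tat reached 2.02-fold higher. The tightest was that of Gstz1, from -0.29 to 0.47. Groups overlapped for all 9 genes, where 19.8% of genes did not overlap.

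High fat diet was compared with chow within each genotype label. In libraries labelled WT, with 12 libraries, all 9 members had higher means on HFD (0.82 to 4.84, median 3.21, against 0.02 over all genes). None passed (0% of genes called, adjusted p 0.307 to 0.472, limma; 3 members and 1807 genes at unadjusted p under 0.05). Without WT chow 2 and 3 the range was -0.42 (Tat) to 0.06 (Tdo2), with 0 of 9 called (0.00816% of genes), and without WT chow 1 the 5 genes named above passed, as did 19.9% of genes. The groups overlapped for all 9 genes, where 11.2% of genes did not overlap. These comparisons share the WT chow libraries with those of KO chow and WT chow, so the 2 sets of values are not independent.

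In libraries labelled KO neither group of the diet comparison holds a WT library, but the fit estimates spread over the WT groups as well. The SE of Hpd, for one, was 2.09 with 12 libraries and 0.27 without WT chow 2 and 3. Aass had the lowest difference, HFD minus chow, at -0.49, followed by Tat at -0.43 and Kmo at -0.36, and Gstz1 the highest at 0.28. With 12 libraries 0 of 9 members passed (0.155% of genes called, 924 genes at unadjusted p under 0.05 by limma, and 0 members). With 10 libraries 0 of 9 passed, while 7.76% of genes (951) were called. That count is unstable: leaving out each of 9 further libraries in turn gave from 17 genes (without KO chow 2) to 1535 (without KO chow 3), with 39 without KO HFD 1 and 396 without KO HFD 2, and TPM gave 2231. Aass had an SE of 0.26 and an adjusted p of 0.243, with a 95% interval from -1.07 to 0.09. The 3 KO HFD libraries were above all 3 of KO chow for Hpd (1634 to 1850 against 1424 to 1576 FPKM) and Gstz1 (519 to 608 against 406 to 494 FPKM), as for 9.98% of genes in that direction. Rescaled to TPM, both groups overlapped for both genes, and with median-of-ratios scaling they overlapped for Hpd. The 6 pancreas acinar markers summed to 37.0 to 64.6 FPKM in KO HFD and to 0 to 4.93 FPKM in the other groups, and their part in these values was not tested.

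**Figure D3:**
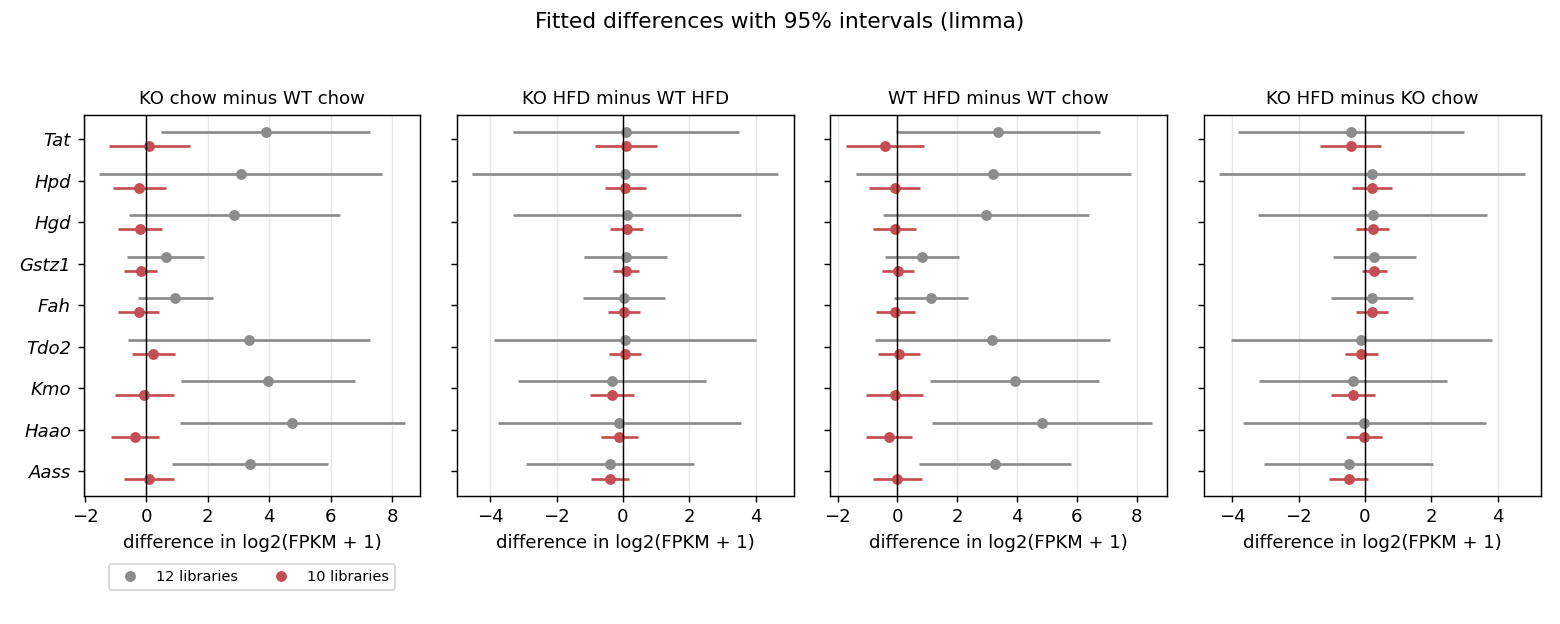
Fitted log2(FPKM + 1) differences with 95% intervals for each gene in 4 comparisons, from 12 libraries (grey) and from the 10 without WT chow 2 and 3 (red). Grey points lie to the right of 0 in the 2 comparisons with WT chow, red points lie near 0, and every red interval includes 0.

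KO HFD 1 bore on some of the lower of these differences, those of Kmo and Aass. Its Kmo was 44.1% of the median of the other 9 libraries, its Aass 56.6% and its Haao 66.8%, while Tdo2 was at 104% and Gstz1 at 109%. The 8 hepatocyte markers summed to 38851 FPKM in it, the lowest of the 10 libraries. Without it (9 libraries) the diet difference in KO libraries was 0.01 for Kmo, 0.22 for Haao and -0.29 for Aass, and 0 of 9 members passed. The genotype difference on HFD became 0.04 for Kmo, 0.14 for Haao and -0.18 for Aass. The lower mean of Kmo in KO HFD thus rested on this library, and Aass kept a lower mean without it. Haao was low in KO HFD 1 but not over the group. Its mean was 458 FPKM in KO HFD, 448 in KO chow and 481 in WT HFD. Tat, with a diet difference of -0.43, stood at 286 FPKM in KO HFD 1, beside 345 and 342 in KO HFD 2 and 3. The KO chow values of Tat were 293, 430 and 660 FPKM.

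The interaction asks whether the diet difference depends on the genotype label. With 12 libraries all 9 values were negative (-4.86 to -0.54), none passed (0.122% of genes called, adjusted p 0.294 to 0.710, limma), and 2 members and 2038 genes had an unadjusted p under 0.05. With 10 libraries they ran from -0.48 (Aass) to 0.32 (Hgd), with 0 of 9 called (0.0816% of genes). Averaged over both diets, KO minus WT gave 0 of 9 calls with 12 libraries (0.0653% of genes, 316 genes at unadjusted p under 0.05) and with 10 (0.0571%). Averaged over both genotypes, HFD minus chow gave 0 of 9 with 12 libraries (0.0653%, 553 genes at unadjusted p under 0.05) and with 10 (0.114%). Without WT chow 1, the interaction was called for 4 members (Haao, Tat, Aass and Kmo; 18.5% of genes), and each average for 3 (Haao, Aass and Kmo; 6.42% and 5.59% of genes).

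Other genes of amino acid breakdown were followed in the same fits. The lists were chosen with earlier results of these data known and held other genes of phenylalanine and tyrosine (6 tested), tryptophan (10), lysine (8), other amino acids (25), amino acid carriers (8) and glucocorticoid response (14). With 12 libraries 0 genes of any list passed in the 4 comparisons of groups. With 10 libraries the diet comparison in KO libraries called 1 gene of other amino acids and 1 of the glucocorticoid list, and the other lists had 0, beside the 7.76% of all genes, a share that moves with single libraries as given above. The 8 lysine genes had lower means on HFD in 8 of 8 cases, with a median of -0.29 against -0.06 over all genes and 0 called. Against WT HFD they were lower in 8 of 8 as well (median -0.31 against -0.03, 0 called), and the 2 comparisons share the KO HFD libraries. With median-of-ratios scaling it was 6 of 8 and 7 of 8, and without KO HFD 1 it was 6 of 8 in both. The medians were then -0.08 for the diet, against -0.13 over all genes, and -0.23 for the genotype on HFD, against -0.09 over all genes. Rescaled to TPM, 1 of the 8, Hykk, passed for the diet (adjusted p = 0.0448, limma), when the median of all genes was -0.23. Gcdh, glutaryl-CoA dehydrogenase, stood at 163, 283 and 273 FPKM on HFD and 266, 252 and 308 FPKM on chow in the libraries labelled KO. Its difference of -0.24 (SE 0.23, adjusted p = 0.533, limma) became 0.02 without KO HFD 1.

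Nr3c1 encodes the glucocorticoid receptor, through which Tat and Tdo2 are classically induced. KO chow held 13.6, 14.9 and 12.02 FPKM of it, KO HFD 7.66, 8.93 and 7.71 FPKM, WT HFD 11.6, 10.8 and 11.6 FPKM, and WT chow 11.8, 2.75 and 9.41 FPKM. The KO HFD libraries all lay below KO chow. Between these groups 9.98% of all genes were separated in the opposite direction, and the share in this direction is not given here. Nr3c1 fell by 0.67 on the log2 scale on HFD in KO libraries (SE 0.12, adjusted p = 0.0334, limma, 10 libraries), with Tat at -0.43 (adjusted p = 0.527) and Tdo2 at -0.11 (adjusted p = 0.785) not called. Of the 14 genes of the glucocorticoid list, Nr3c1 included, 10 had higher means on HFD (median 0.09, against -0.06 over all genes), and none of the 10 was called. Among them were Lcn2 (2.88, adjusted p = 0.0830, limma), Dusp1 (0.37), Igfbp1 (0.29), Fkbp5 (0.09), Tsc22d3 (0.10) and Sgk1 (0.09). With 12 libraries the adjusted p of Nr3c1 was 0.663. Amt, of the glycine cleavage system, had 38.5, 38.7 and 30.8 FPKM in the KO chow libraries and 17.2, 25.2 and 21.5 FPKM in those of KO HFD. It fell by 0.74 (SE 0.18, adjusted p = 0.0454). Neither call was firm. Of 12 other fits of the 10 libraries without a replicate block (2 scalings, voom and leaving out each further library), 5 called Nr3c1 and 3 called Amt, with adjusted p up to 0.142 and 0.166, the highest without KO chow 2. Nr3c1 also lost its call without KO chow 1, KO HFD 1, KO HFD 3 or any WT HFD library, and Amt without any further library other than KO chow 3.

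The genes most like Tat, Tdo2 and Aass were sought by Pearson's r of log2(FPKM + 1) over the 10 libraries among 11042 genes. They are given as a description, since the libraries share their groups and depth. Tat was most like Pck1, the gluconeogenic PEP carboxykinase (r = 0.90, Spearman's rho = 0.85), Tmem86b (0.86 and 0.87) and Kynu, kynureninase (0.86 and 0.89). Without the 2 libraries farthest from the median of Tat, KO chow 3 and WT HFD 1, r was 0.84 for Pck1, 0.94 for Tmem86b and 0.80 for Kynu. Pck1 was highest where Tat was, with 925.6 FPKM in the KO chow 3 library and 729 in WT HFD 2, and 345 and 337 in WT HFD 1 and WT HFD 3. The low ends did not match fully. Pck1 was lowest in KO HFD 1 (316 FPKM), where Tat, at 286 FPKM, was above its level in WT HFD 1 and WT HFD 3. Of the other members, Hgd and Aass were nearest to Tat (r = 0.59 and 0.58), and Tdo2, also glucocorticoid-induced, stood at 0.52. Tdo2 was most like Ube2b (0.94), Tob1 (0.93) and Bpnt1 (0.90), and Aass was most like Arl15 (0.95), Lysmd4 (0.94) and Ipmk (0.94).

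**Figure D4:**
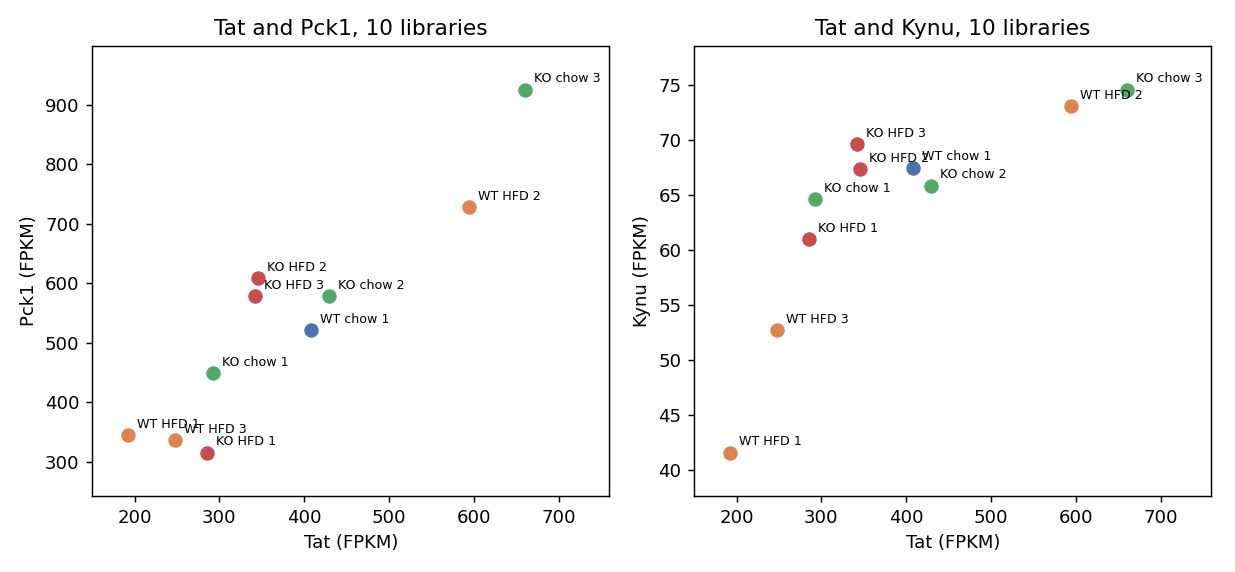
Pck1 (left) and Kynu (right) against Tat, all in FPKM, in the 10 libraries without WT chow 2 and 3, with colours for the 4 groups. KO chow 3 and WT HFD 2 are highest for all 3 genes, WT HFD 1 is lowest for Tat and Kynu, and the 3 KO HFD libraries lie closer together in Tat than those of WT HFD or KO chow.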

How the data were processed

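RNA sequencing values of 12 libraries were read from the table of FPKM that the authors deposited for 35275 genes, and all 12 value columns were mapped by sample title. The submitters' processing notes list HTSeq 0.6.1, STAR, TopHat, CASAVA and DESeq2 (as version 2), with the builds GRCm38 and mm10. The sources used here do not say which aligner or annotation made the values, whether strand was used, or what was filtered.

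FPKM times gene length gave whole reads for 100% of values (tolerance 0.1 of a read). The libraries of a group differed by more than sampling noise (chi-square per gene 39.2 to 1340 on average), so none was counted as a repeat. Genes with a mean of at least 0.5 FPKM over the 12 libraries (12251, all 9 members among them) were fitted in limma 3.58.1 (R 4.3.3) as log2(FPKM + 1), a scale that understates changes of low genes, with 4 group means, empirical Bayes with a trend and Benjamini-Hochberg adjustment at 0.05. Hnf4a was compared by exact permutation tests. The fit was tested on simulated data. Promoter windows came from RefSeq and gene overlaps from GENCODE M21. All 9 members were named, with genes of fixed lists and the 3 genes most alike to Tat, Tdo2 and Aass. The members and lists were chosen with earlier results of these data known. Alternatives covered the pseudocount, filter, scaling, weights, moderation, a fold threshold, a replicate block, limma-voom on the recovered reads and leaving out libraries.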

Additional observations from a re-analysis of the deposited data

How the results depend on the processing

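Among 38 other settings, members passed the threshold in 1 only, the fit without WT chow 1. Leaving out 1 library at a time, the number of members called ran from 0 to 5 for KO against WT on chow and for HFD against chow in WT, from 0 to 4 for the interaction and from 0 to 3 for each average, and stayed at 0 for the other comparisons. No member called there changed sign, and of 2347 values called in neither setting 501 had another sign. For Hnf4a the mean of WT HFD exceeded that of WT chow with 12 libraries and was lower by 2.62 FPKM without WT chow 2 and 3 (difference -2.62; exact permutation p = 1). Libraries with the same replicate number were not more alike across groups (18 pairs, r -0.50 to 0.13, median -0.04, 2 over 0.1). The 36 different-number pairs had r from -0.25 to 0.50, with a median of 0.04 and 10 over 0.1. Deviations were taken from group means of 12 libraries, WT chow 2 and 3 among them, so pairing is not excluded. With the replicate block 0 members were called in any comparison. In the 10-library fit of the diet in KO, the replicate block called 31 genes against 951, and neither Nr3c1 (adjusted p = 0.0539, limma) nor Amt (adjusted p = 0.0581). Other settings with 12 libraries called 3 to 2420 genes for the diet in KO, 3 to 33 for genotype on HFD, 0 to 4 for genotype on chow and 0 to 25 for the interaction. Limma-voom on the recovered reads called 0, 15, 0 and 12 genes for genotype on chow, genotype on HFD, diet in WT and diet in KO. TPM moved the median difference of all genes in KO by diet to -0.23, and in the 10-library fit it made 9 of 9 members lower in KO HFD than in WT HFD, with 0 called. The edgeR alternative was not run because the deposited unit is FPKM.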
